A study of Mus musculus with 8 samples.

Results

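Jun and 8 of its neighbours on mouse chromosome 4 were examined by RNA-seq in 8 samples of malignant mesothelioma, the tumour that arises from the lining of the chest cavity. The genes are Plaa, Jun, Fggy, Hook1, Patj, Usp1, Atg4c, Alg6 and Itgb3bp, which start between 94 and 100 Mb of the chromosome. They were chosen from a list of names because their levels were high together in 1 double knockout sample, so their height in that sample is described here and not tested. These are 9 of the 103 genes that start in the interval and of the 52636 genes in each count table. All 9 passed the filter on low counts, as did 31 of the 103 interval genes and 17709 genes in all. Of the 72 interval genes that did not pass, 39 had no read in any sample.

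The triple knockout group, 6 samples, carries losses of Nf2, Cdkn2a and Bap1. The double knockout group, 2 samples, carries losses of Nf2 and Cdkn2a with Bap1 left in place. Losses of Nf2, which encodes the Hippo pathway regulator merlin, and of Cdkn2a, which encodes cell cycle inhibitors, are thus shared by all 8 samples. Bap1 encodes a deubiquitinase of histone H2A. The labels speak of conditional mouse models and of cells held in RPMI medium, and they name no driver of the deletion, no age of the mice and no number of animals. P-values therefore measure only the spread between these samples, which may be technical.

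Jun is a basic leucine zipper protein that pairs with itself, with Fos proteins or with ATF proteins to form the transcription factor AP-1. JNK kinases phosphorylate Jun and raise its activity, and the human JUN promoter carries AP-1-like sites through which Jun acts on its own gene. AP-1 is known for its part in growth, wound healing and invasion, and asbestos fibres raise Jun in cultured mesothelial cells. The neighbours have unrelated roles. Plaa is a ubiquitin-binding partner of the ATPase Vcp, Usp1 removes ubiquitin from Pcna and Fancd2, and Atg4c is a protease of the autophagy pathway. Patj is a scaffold of the Crumbs polarity complex, Hook1 links cargo to dynein, and Itgb3bp is the kinetochore protein CENP-R. Alg6 adds a glucose to the precursor of N-linked glycans, and Fggy belongs to the carbohydrate kinases.

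RefSeq promoters were found for 8 of the 9 genes, all but Usp1, and the 250 bases before the start of 3 genes are shown because their differences in double sample 1, described below, were of different size. Jun names the group, Fggy had a large difference in double sample 1 and Alg6 the smallest of the 9. The build is GRCm38.p6. The Jun window is chr4:95052223-95052472 on the minus strand, that of Fggy, from the first of its RefSeq starts, is chr4:95557257-95557506 on the plus strand, and that of Alg6 is chr4:99715380-99715629 on the plus strand. Each is written 5′ to 3′ on the strand of its gene, and capitals mark the motifs named in the next paragraph.
Jun: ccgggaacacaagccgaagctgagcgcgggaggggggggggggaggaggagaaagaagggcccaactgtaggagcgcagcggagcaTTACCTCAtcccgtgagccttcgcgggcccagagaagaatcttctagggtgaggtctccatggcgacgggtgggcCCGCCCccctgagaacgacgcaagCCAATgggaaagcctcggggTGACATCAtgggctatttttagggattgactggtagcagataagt
Fggy: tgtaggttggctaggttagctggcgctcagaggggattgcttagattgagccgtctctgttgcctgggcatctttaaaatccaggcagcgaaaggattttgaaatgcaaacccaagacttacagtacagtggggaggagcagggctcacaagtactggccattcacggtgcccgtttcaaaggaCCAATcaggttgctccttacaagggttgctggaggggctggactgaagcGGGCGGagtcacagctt
Alg6: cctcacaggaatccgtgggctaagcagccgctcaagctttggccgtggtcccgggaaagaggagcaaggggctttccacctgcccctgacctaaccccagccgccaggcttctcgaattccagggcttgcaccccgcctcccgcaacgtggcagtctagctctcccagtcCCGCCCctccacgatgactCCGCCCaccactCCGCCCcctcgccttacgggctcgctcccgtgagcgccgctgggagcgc

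The windows of the 8 genes were searched on both strands for known promoter motifs. Patj had 3 windows and Fggy and Atg4c 2 each. A gene was counted if any of its windows matched, while the shares over all promoters are per window, so the 2 are not alike. The Jun promoter held TGACATCA, the proximal AP-1-like site, 45 to 38 bases before the start, and TTACCTCA, the distal one, 164 to 157 bases before it. Of 32851 promoters of this length in the table, 2.93% held TGACATCA and 0.728% held TTACCTCA. The first was also in an Atg4c promoter. The TPA response element TGACTCA was found only in a Patj promoter among the 8 genes, against 4.46% of all promoters. TGACGTCA, the cAMP response element, and TATAAA, the TATA box, were in no promoter of the 8, against 1.55% and 12.4% of all. The CCAAT box was in those of Jun, Fggy and Hook1, and the GC box GGGCGG was in those of Jun, Fggy, Hook1, Patj and Alg6, where 2 matches in Patj share a base. Over all promoters, 33.8% held the CCAAT box and 32.7% the GC box. None of the motifs searched overlapped another kind of motif in the 3 windows shown. A match describes letters in a window and no binding was measured.

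Libraries held 28326756 to 30232440 counts in the triple samples, 32082535 in double sample 1 and 26847202 in double sample 2. Transcripts of the targeted genes were counted in every sample. Bap1 stood at 43.1 to 72.1 CPM in the triple samples and at 105.5 and 71.2 CPM in double samples 1 and 2. With edgeR the adjusted p for Bap1 was 0.122, for Nf2 0.103 and for Cdkn2a 0.306. CPM is the count of a gene scaled to a common library size, with TMM factors that correct the sizes by a trimmed mean of gene ratios. Double sample 1 stood apart from the other libraries. Its TMM factor was 0.771, against 0.994 to 1.10 in the other 7, and mitochondrial genes took 4.04% of its counts, against 1.16 to 2.33% in the others. The 12 adult skeletal muscle markers summed to 134 to 11866 CPM in the triple samples, to 70893 CPM in double sample 1 and to 2758 CPM in double sample 2. The 10 embryonic muscle markers summed to 4.57 to 139 CPM in the triple samples and to 6474 and 2104 CPM in double samples 1 and 2. The 8 proliferation genes summed to 717 to 1025 CPM in the triple samples and to 221 and 868 CPM in double samples 1 and 2. No adult muscle marker was at 0 in any sample, and of the embryonic ones 1 was at 0, in triple sample 4 alone. Sums for 10 leukocyte, 8 endothelial and 7 fibroblast markers in double sample 1 were 758, 458 and 8835 CPM, against 1589 to 2430, 292 to 778 and 9654 to 35187 CPM in the other 7 samples. Mesothelial markers were patchy. The 10 summed to 134 to 948 CPM in the triple samples and to 345 and 1428 CPM in double samples 1 and 2. Of the 10, 1 was below 1 CPM in triple sample 3, against 4 to 6 in every other sample. Calb2 was at 0 in 7 of the 8 samples. Wt1 was at 33.2 CPM in triple sample 3 and at 0.317 to 1.76 CPM in the other triple samples. In double samples 1 and 2 Wt1 was at 0 and 0.0361 CPM. Msln stood at 251 and 342 CPM there, against 12.6 to 194 CPM in the triple samples. Pdpn went the other way in double sample 1, at 58.5 CPM against 79 to 204 CPM in the other 7 samples. Krt8 and Krt18 gave 799 and 203 CPM of the sum in double sample 2. Upk3b, Upk1b and Krt19 stood at 173, 137 and 52.9 CPM in triple sample 3 and at no more than 2.52 CPM elsewhere. The mesothelial genes named here were picked after their values were seen. Leukocyte, endothelial and adult muscle markers were thus counted in all 8 samples although the labels describe cultured cells, and whether cultures or tumour tissue were sequenced is unclear. The part of these differences in the results below was not tested, and in bulk RNA fewer cells of a type and less RNA per cell cannot be told apart.

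Jun (chromosome 4, 95049034 to 95052222, minus strand) stood at 151, 181 and 202 CPM in the triple samples as lowest, median and highest value, and at 544 and 106.2 CPM in double samples 1 and 2. Double sample 1 was the highest of the 8 samples and double sample 2 the lowest, so the 2 double samples lay on opposite sides of all 6 triple samples. The order of levels ran from double sample 1 through triple samples 1, 2, 3, 5, 6 and 4, at 202, 192, 186, 176, 158 and 151 CPM, down to double sample 2. Triple samples averaged 178 ± 20.04 CPM (SD, n = 6) and double samples 325 ± 309 CPM (SD, n = 2), so neighbours in the order among the triple samples differed by less than that SD. On the log2 scale double sample 1 lay 1.63 above the median of the other 7 samples, which is 3.09-fold. The edgeR log2 difference, triple minus double, was -0.87 ± 0.45 (SE) and stands here as a description. Without double sample 1 it was 0.73, with triple above double sample 2, and edgeR gave it an adjusted p of 0.166. Without double sample 2 it was -1.60.

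Plaa (94567514 to 94603244, minus strand) was the first of the 9 along the chromosome and stood at 67.7, 92.8 and 131 CPM in the triple samples, lowest, median and highest, and at 544 and 118 CPM in double samples 1 and 2. Double sample 1 was far above the rest and double sample 2 lay inside the triple range. The ratio of double sample 1 to the median of the other 7 was 5.80-fold. Usp1 (98923810 to 98935543, plus strand), the other gene of ubiquitin handling, stood at 63.1, 66.6 and 79.4 CPM in the triple samples and at 209 and 64.1 CPM in double samples 1 and 2. It varied little outside double sample 1, where it was 3.18-fold the median of the others, and double sample 2 again lay inside the triple range. Atg4c (99193934 to 99259787, plus strand), the autophagy protease, stood at 9.88, 10.7 and 11.9 CPM in the triple samples and at 25.9 and 16.2 CPM in double samples 1 and 2. Both double samples were above all triple samples, and the ratio for double sample 1 was 2.40-fold.

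Patj (98395785 to 98719603, plus strand), the polarity scaffold, had the largest ratio among the 9. It stood at 2.32, 4.57 and 7.85 CPM in the triple samples and at 351 and 15.4 CPM in double samples 1 and 2. Both double samples were above every triple sample, and double sample 1 was 55.0-fold the median of the other 7. Hook1 (95967240 to 96025413, plus strand), the dynein adaptor, stood at 0.663, 1.04 and 4.05 CPM in the triple samples and at 25.4 and 1.37 CPM in double samples 1 and 2. Double sample 1 was 19.8-fold the median of the others. Double sample 2 lay inside the triple range, whose top was 1 sample, triple sample 2.

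Fggy (95557507 to 95926939, plus strand), the carbohydrate kinase, stood at 3.73, 6.26 and 8.57 CPM in the triple samples and at 58.4 and 7.55 CPM in double samples 1 and 2. Only double sample 1 left the range of the others, by 8.10-fold over their median. Itgb3bp (99765402 to 99929813, minus strand), the kinetochore protein, stood at 4.50, 7.93 and 10.3 CPM in the triple samples and at 29.7 and 11.9 CPM in double samples 1 and 2. Both double samples were above all triple samples, at 3.57-fold for double sample 1. Alg6 (99715664 to 99763460, plus strand), the glucosyltransferase, stood at 10.8, 12.6 and 16.2 CPM in the triple samples and at 22.3 and 17.2 CPM in double samples 1 and 2. It had the smallest ratio for double sample 1, 1.57-fold, and double sample 2 was just above the highest triple sample. Read counts in double sample 1 ran from 552 for Alg6 to 13443 for Plaa, so counting error is small beside these ratios.

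**Figure D1:**
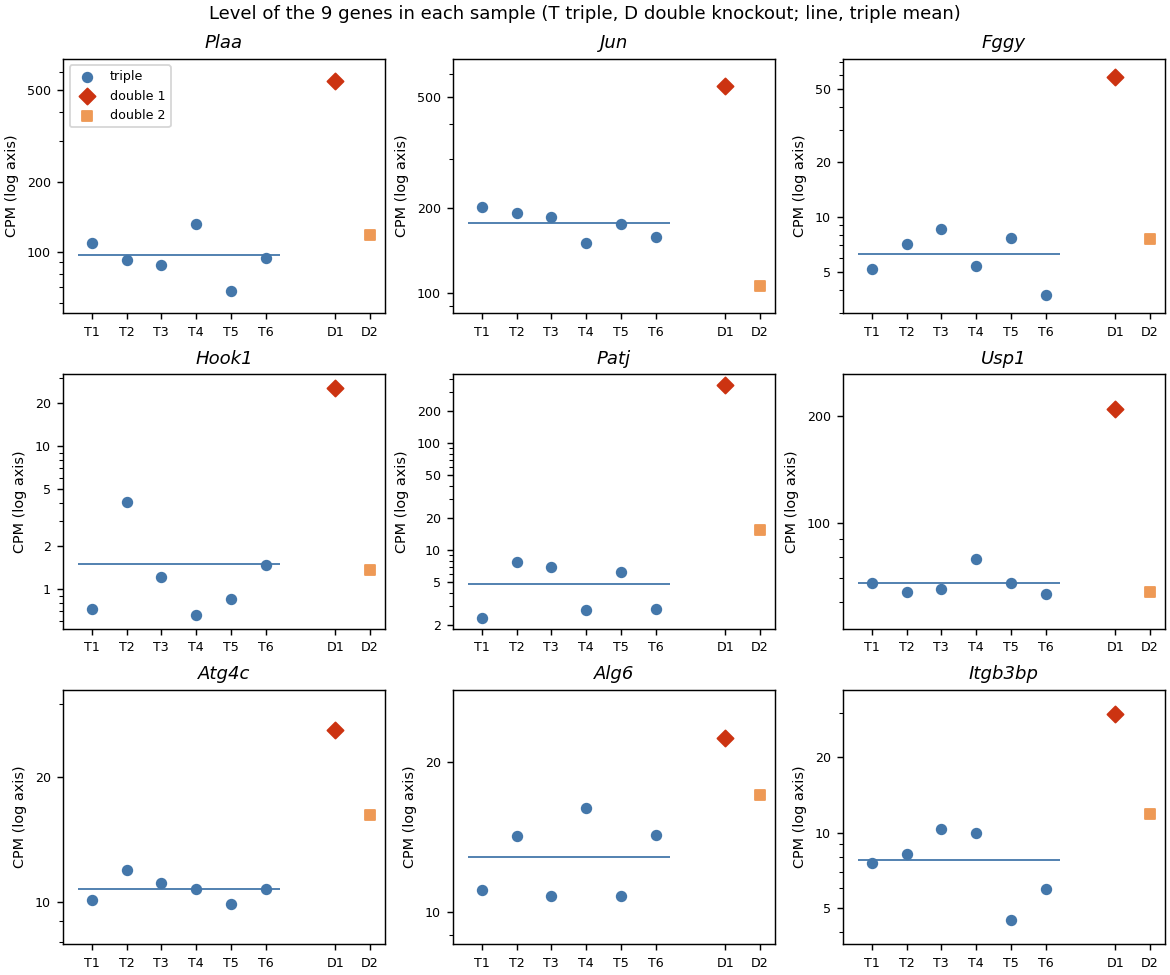
CPM after TMM scaling (log axis) of each of the 9 genes in the 6 triple samples (T1 to T6), double sample 1 (D1) and double sample 2 (D2), with a line at the triple mean. Every panel has D1 on top, from 22.3 CPM for Alg6 to 544 CPM for Jun and Plaa, and D2 is lowest of all samples only for Jun.

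The 9 genes lay 1.84 above the median of the other 7 samples on the log2 scale in double sample 1, as a median over the genes, and each of the 9 was above all other 7 samples there. Of all genes tested, 29.7% were above the other 7 samples in double sample 1 and 31.8% were below them, so that library differed from the rest at many genes. The median over the 9 genes was -0.37, -0.01, 0.05, -0.05, -0.17 and -0.22 in triple samples 1 to 6 and 0.28 in double sample 2. Of the 9 genes, 8 were more than 1 log2 unit above the median in double sample 1, against 19.5% of all genes. Scaling by library totals alone moved the median of all genes in double sample 1 to -0.49, from -0.07 with TMM. The median of the 9 genes was then 1.37, and Alg6, at 0.28, no longer lay above all other samples. Against the 3 triple samples with the same description code, SN930, the median of the 9 genes in double sample 1 was 2.30.

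The log2 differences describe how the groups compare in the edgeR fit, a contrast that double sample 1 enters. For Patj the log2 difference, triple minus double, was -5.24 ± 0.85 (SE), and for Fggy it was -2.39 ± 0.57. For Plaa it was -1.77 ± 0.44, and for Atg4c -0.97 ± 0.23. These 4 were called lower in the triple samples at an adjusted p under 0.05, none of the 9 was called higher, and the median over the 9 genes was -1.42. Without any 1 triple sample Plaa, Fggy and Atg4c were no longer called, at adjusted p of 0.0607 to 0.0846 by edgeR, while Patj was. Over all genes 8.35% were called, 2.94% higher and 5.41% lower, and nothing about the 9 genes is read from their count because the contrast holds the sample that chose them. The groups did not overlap for Patj, Atg4c, Alg6 and Itgb3bp, 4 of the 9, against 24.1% of all genes.

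The comparison of the triple samples with double sample 2 alone did not use the sample that chose the genes. With edgeR and without double sample 1, none of the 9 genes was called, with adjusted p from 0.166 for Jun to 0.974 for Hook1, while 1.69% of all genes were called. At an unadjusted p under 0.05 edgeR gave 3 of the 9, against 14.6% of all genes. The fit assumes that the lone double sample varies like the triple samples. The median log2 difference was -0.28, and the largest was -1.67 for Patj, which edgeR gave an adjusted p of 0.284. Without double sample 2 instead, 8 of the 9 were called lower, all but Alg6, and 29.5% of all genes were called. Within the code SN930, which holds double sample 1 and 3 triple samples, 6 of the 9 were called lower with a median of -2.10, and 11.8% of all genes were called. These last counts set the sample that chose the genes against triple samples, so nothing is read from them. Among the samples with other codes, double sample 2 and 3 triple samples, none was called with a median of -0.30, against 0.00552% of all genes. What the codes stand for is not stated in the labels.

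The height in double sample 1 was not limited to the 9 genes. Among the 22 other tested genes of the interval the median log2 ratio to the other 7 samples was 1.51. Of the 22, 15 lay above all other samples and 2 below. Over the 19 with a mean of at least 1 CPM in the 8 samples the median was 1.06, with 12 above and 2 below. Of these, Gm830 and E130114P18Rik reached that mean only with double sample 1. Among all genes tested, 29.7% lay above the other samples and 31.8% below. Over all 31 tested genes of the interval the median was 1.71, with 24 above. Of the genes above, Gm830, Gm12695, Eqtn and Gm12689 stood at no more than 0.361, 0.385, 0.321 and 0.469 CPM in the other 7 samples. They passed the filter on low counts with help from the double samples, so their place among the 24 supports nothing. Gm830, a predicted gene of unknown role, had the largest ratio of the interval. It stood at 0, 0.0641 and 0.128 CPM in the triple samples, lowest, median and highest, and at 61.9 and 0.361 CPM in double samples 1 and 2. Pgm1, the phosphoglucomutase of glycogen metabolism, stood at 43.5, 54.4 and 89.3 CPM in the triple samples and at 522 and 43.8 CPM in double samples 1 and 2. Double sample 1 was far above the rest for both, at 9.69-fold the median for Pgm1. Tm2d1, a membrane protein gene, stood at 11.3, 14.0 and 15.8 CPM in the triple samples and at 144 and 17.1 CPM in double samples 1 and 2, so that the groups did not overlap.

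Further interval genes with known roles were high in double sample 1. Nfia, a transcription factor of the nuclear factor I family, stood at 9.25, 26.3 and 36.4 CPM in the triple samples and at 159 and 33.0 CPM in double samples 1 and 2. Mysm1, like Bap1 a deubiquitinase of histone H2A, stood at 22.5, 44.0 and 57.0 CPM in the triple samples and at 200 and 53.3 CPM in double samples 1 and 2. Tek, the angiopoietin receptor of endothelial cells, stood at 9.91, 15.1 and 22.7 CPM in the triple samples and at 89.7 and 20.8 CPM in double samples 1 and 2. In all of these only double sample 1 left the range of the triple samples. The sum of 8 endothelial markers, Tek among them, was 292 to 778 CPM in the triple samples and 458 and 340 CPM in double samples 1 and 2. Of the 22 other genes, 3 were called lower in triple with edgeR, namely Gm830, Tm2d1 and Tek, and none higher. Over all genes 5.41% were called lower and 2.94% higher, and the contrast holds double sample 1. Without double sample 1 the log2 differences were -2.41 for Gm830, -0.33 for Tm2d1 and -0.43 for Tek. Gm830 passed the filter on low counts only through the double samples, where it was high, so its call supports nothing. Tek was not called without any 1 triple sample, and Tm2d1 was not called without triple sample 1, 4, 5 or 6. With the description code as a term edgeR gave adjusted p of 0.0965 for Tek and 0.0729 for Tm2d1, so that neither was called.

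The other interval genes held both high values and exceptions in double sample 1. Cyp2j6, a cytochrome P450 gene, had a log2 ratio of 1.91, Caap1 of 1.06, Ift74, an intraflagellar transport gene, of 0.72, and E130114P18Rik of 1.30. Kank4 went the other way. It stood at 7.53, 16 and 68.2 CPM in the triple samples and at 2.23 and 8.59 CPM in double samples 1 and 2. Double sample 1 was the lowest of all. Gm12696 was also lowest in double sample 1, with a log2 ratio of -0.98. Cyp2j9, Foxd3, Efcab7, Gm12655 and Gm12688 lay inside the range of the others, with log2 ratios from -0.37 for Foxd3 to 0.80 for Gm12688. Eqtn, Gm12695 and Gm12689, also tested, had a mean below 1 CPM.

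Reads of genes that overlap on opposite strands cannot be told apart, since no source used here states whether the counting used strand. Junos, the antisense gene that overlaps the start of Jun, stood at 1.11, 2.24 and 4.65 CPM in the triple samples and at 10.9 and 1.16 CPM in double samples 1 and 2, the same order of the double samples as for Jun. Itgb3bp overlaps both Pgm1 and Efcab7, and its value in double sample 1 stands beside a Pgm1 level of 522 CPM. Plaa, Fggy and Hook1 each overlap a gene of the other strand, Gm12657, Gm20651 and 9530080O11Rik. Patj overlaps Gm22625 on the other strand and Gm26154 and Gm12846 on its own, and Itgb3bp also overlaps Gm26425. Usp1, Atg4c and Alg6 overlap no annotated gene.

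Along the chromosome, 11 genes in a row with a mean of at least 1 CPM, from Caap1 to Cyp2j6, were above all other samples in double sample 1. That row holds Plaa, Jun, Fggy and Hook1. After Cyp2j9 and Gm12696, a second row of 4 genes ran from E130114P18Rik to Patj. Kank4 broke it, and Usp1 and Atg4c followed, then Alg6 and Itgb3bp after Gm12688 and Foxd3, and last Pgm1 after Efcab7. The mean was taken over all 8 samples, and Gm830 and E130114P18Rik reached 1 CPM only with double sample 1. Of all genes tested, 29.7% were above the other 7 samples there, and the rows are a description.

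**Figure D2:**
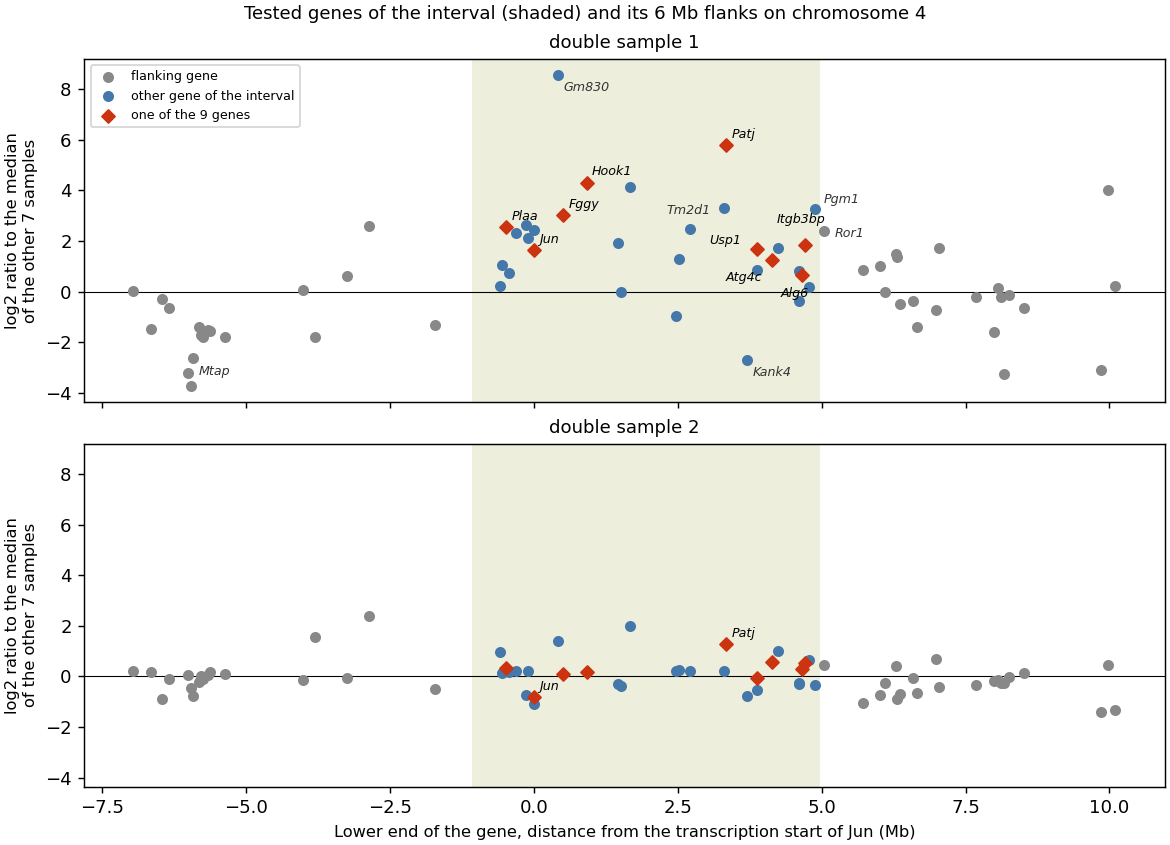
Log2 ratio of CPM to the median of the other 7 samples for each tested gene of the interval (shaded) and its flanks, against distance from the start of Jun in Mb, in double sample 1 (upper panel) and double sample 2 (lower panel). In double sample 1, 24 of 31 interval genes lie above all other samples, against 29.7% of all genes, with Kank4 among the exceptions. Gm830, Gm12695, Eqtn and Gm12689, among the 24, passed the filter on low counts with help from the double samples. In double sample 2 the median of the interval genes is 0.22, and they range from -1.08 for Junos to 1.98 for Gm12695.

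Within 6 Mb of the interval the median ratio in double sample 1 was lower on both sides. Several genes next to the edges were high, as given below. In double sample 1 the median log2 ratio was 1.71 for the interval and -0.48 for the 39 tested genes of the flanks, 6 Mb on each side, a difference of 2.20. The same difference was between -0.57 and 0.02 in the triple samples and 0.35 in double sample 2. On the left side the median in double sample 1 was -1.50, and 12 of 18 genes lay below all other samples. On the right side it was -0.15 over 21 genes, 7 of them above all others and 6 below. The left side was thus lower than the right in that sample. Of all genes 29.7% lay above the other 7 samples there and 31.8% below. With flanks of 3 Mb, which hold 17 tested genes, the flank median in double sample 1 was 0.07.

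The edges themselves were not equally sharp. Tusc1, the nearest gene on the left, stood at 6.65, 8.28 and 15.6 CPM in the triple samples and at 3.16 and 5.60 CPM in double samples 1 and 2, lowest in double sample 1. Farther left, Gm12666 and Gm12669 had log2 ratios of 2.60 and 0.61 in double sample 1, the first at 0.729 CPM. On the right, Ror1, a receptor tyrosine kinase gene, stood at 4.47, 10.4 and 13.0 CPM in the triple samples and at 56.0 and 14.8 CPM in double samples 1 and 2. Ror1 thus lay with the interval genes although it starts beyond 100 Mb, with a log2 ratio of 2.39, and Cachd1 and Raver2 after it had 0.86 and 1.00. Among the 9 genes those next to the edges were Plaa at 2.54 on the left and Itgb3bp at 1.84 on the right. Cdkn2a, a targeted gene in both groups that lies on the left at 89.27 Mb, stood at 4.05, 5.70 and 8.76 CPM in the triple samples and at 1.54 and 5.16 CPM in double samples 1 and 2. Its neighbour Mtap, of the methionine salvage pathway and chosen after its values were seen, stood at 183, 251 and 365 CPM in the triple samples and at 39.9 and 146 CPM in double samples 1 and 2. Both were lowest in double sample 1.

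Set against windows of 6 Mb across the genome with at least 5 tested genes, the window of Jun was the highest of 431 in double sample 1. Its median log2 ratio there was 1.71, and the next windows stood at 1.22 on chromosome 19, 1.19 on chromosome 1 and 1.17 on chromosome 6. The window was chosen for its height, so the place is a description. Windows of double sample 1 ranged from -2.69 to 1.71 with an SD of 0.45, wider than the SDs of 0.12 to 0.25 in the other 7 samples. The window of Jun was not near the top in the triple samples, where its median ran from -0.37 to 0.10, and it stood at 0.22 in double sample 2, 59th of 431. Split in 3 Mb pieces, the piece from 94 to 97 Mb, with Plaa, Jun, Fggy and Hook1, had a median of 2.33 in double sample 1, and the piece from 97 to 100 Mb, with the other 5 genes, had 1.28. They were the 2nd and the 9th highest of 740 such windows, whose highest stood at 2.82.

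**Figure D3:**
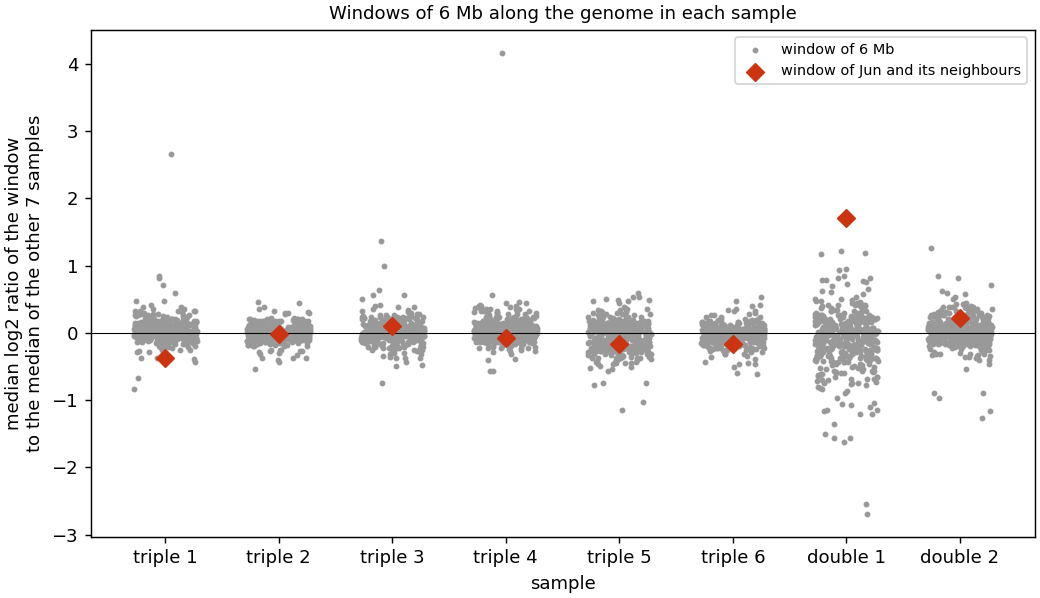
Median log2 ratio of CPM to the median of the other 7 samples in each 6 Mb window of the genome (grey points) for each of the 8 samples, with the window of Jun and its neighbours as a red diamond. The diamond is the highest point in double sample 1, at 1.71, and lies between -0.37 and 0.22 in the other 7 samples.

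The lists of genes that act with Jun or its neighbours had median log2 ratios in double sample 1 from -0.81 to 0.27. Of the 18 AP-1 dimer partners and relatives, all tested, with edgeR 1 was called lower in triple and none higher, and the median log2 difference was 0.14, against calls at 8.35% of all genes. The called gene was Junb, a close relative of Jun. It stood at 95.2, 109 and 140 CPM in the triple samples and at 251 and 163 CPM in double samples 1 and 2, so that the groups did not overlap. The log2 difference was -0.91 ± 0.21 (SE), with an adjusted p of 0.0350 by edgeR. Without double sample 1 it was -0.57 with an adjusted p of 0.280 by edgeR, and leaving out any of triple samples 1 to 5 also ended the call, at adjusted p of 0.0622 to 0.0737.

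In double sample 1, 7 of the 18 relatives lay above all other samples and 7 below, against 29.7% and 31.8% of all genes. The median log2 ratio of the relatives was -0.11. Among those above, chosen after their values were seen, Mafk, a small Maf protein, stood at 183 CPM and Atf3, a stress-induced partner of Jun, at 62.8 CPM in double sample 1, against 27.4 to 46.2 CPM and 5.49 to 17.7 CPM in the other 7 samples. The Fos relative Fosl1 was the lowest of the list, at 2.91 CPM in double sample 1 against 31.8 to 91.8 CPM in the other 7. Fos itself lay within their range, at 82.7 CPM against 24.8 to 90.6 CPM. Fosl1 and Fos were also picked after their values were seen.

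Of 22 genes of the JNK pathway 20 were tested, 1 was called higher in the triple samples and none lower, with a median log2 difference of -0.06, against calls at 8.35% of all genes. The called gene was Map3k12, a kinase upstream of JNK, which stood at 26.1, 42.9 and 59.2 CPM in the triple samples and at 5.83 and 17.9 CPM in double samples 1 and 2. The groups did not overlap, and edgeR gave a log2 difference of 1.83 ± 0.46 (SE) with an adjusted p of 0.0465. Without double sample 1 the difference was 1.22 with an adjusted p of 0.195 by edgeR. The call also ended, at adjusted p of 0.0506 to 0.0836, without any 1 of the 6 triple samples. In double sample 1, 10 of the 20 lay above all other samples and 3 below with TMM, against 29.7% and 31.8% of all genes. With library totals alone 5 lay above and 6 below, against 18.3% of all genes above and 8238 of 17709 below. The list's median ratio there was 0.27 with TMM, where that of all genes was -0.07. With library totals alone it was -0.12, where that of all genes was -0.49.

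Of 30 known AP-1 target genes 28 were tested, with 2 called higher in triple, 1 lower and a median log2 difference of 0.73, where 2.94% of all genes were called higher and 5.41% lower. Spp1, which encodes osteopontin, stood at 23.9, 53.0 and 74.3 CPM in the triple samples and at 584 and 1886 CPM in double samples 1 and 2. Both double samples were far above the triple samples, double sample 2 more so, unlike Jun. Spp1 fell by 4.63 ± 0.51 (SE) on the log2 scale with an adjusted p of 0.00277 by edgeR, and it was called in every fit that left out 1 sample. Mmp9, a gelatinase, stood at 363, 896 and 1586 CPM in the triple samples and at 36.2 and 156 CPM in double samples 1 and 2. The groups did not overlap, and edgeR gave 3.27 ± 0.74 (SE) with an adjusted p of 0.0336. Mmp10, a stromelysin, stood at 4.53, 33.5 and 121 CPM in the triple samples and at 0.607 and 0.361 CPM in double samples 1 and 2, again with no overlap, and edgeR gave 6.42 ± 1.67 (SE) with an adjusted p of 0.0499. Without double sample 1 edgeR gave adjusted p of 0.167 for Mmp9 at 2.56 and of 0.270 for Mmp10 at 6.82. Without double sample 2 edgeR gave Mmp10 an adjusted p of 0.0979. By edgeR the Mmp9 call also ended without any of triple samples 1, 2, 3, 4 and 6, at adjusted p of 0.0524 to 0.0637, and that of Mmp10 without any of triple samples 1, 4, 5 and 6, at 0.0655 to 0.0830. Both kept their direction in each of these fits.

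In double sample 1 none of the 28 targets lay above all other samples and 10 lay below, against 29.7% and 31.8% of all genes. The median log2 ratio of the targets was -0.81. Ccnd1, which encodes cyclin D1 and was chosen after its values were seen, stood at 39.3 CPM in double sample 1 against 285 to 711 CPM in the other 7. The 8 proliferation genes also had their lowest sum in that sample, as given above, and the part of cell division in these levels was not tested.

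The partners of the other 8 genes gave 1 call among 35 tested of 38 listed, lower in triple, against 8.35% of all genes, and a median log2 difference of 0.05. It was Map1lc3a, the autophagy protein LC3A that Atg4 proteases process, at 33.8, 65.6 and 84.2 CPM in the triple samples and at 416 and 77.8 CPM in double samples 1 and 2. Double sample 2 lay inside the triple range, and edgeR gave -1.98 ± 0.50 (SE) with an adjusted p of 0.0473. Without double sample 1 edgeR gave -0.32 with an adjusted p of 0.800, and without any 1 triple sample 0.0716 to 0.0877. In double sample 1, 12 of the 35 lay above all other samples and 13 below, against 29.7% and 31.8% of all genes. The median log2 ratio of the partners was -0.08. Named after their values were seen, Vcp, the ATPase that works with Plaa, stood at 545 CPM in double sample 1 against 268 to 332 CPM in the other 7, and Wdr48, the activator of Usp1, at 39.3 CPM against 67.9 to 80.7 CPM. The partner was thus above the others beside Plaa and below them beside Usp1.

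**Figure D4:**
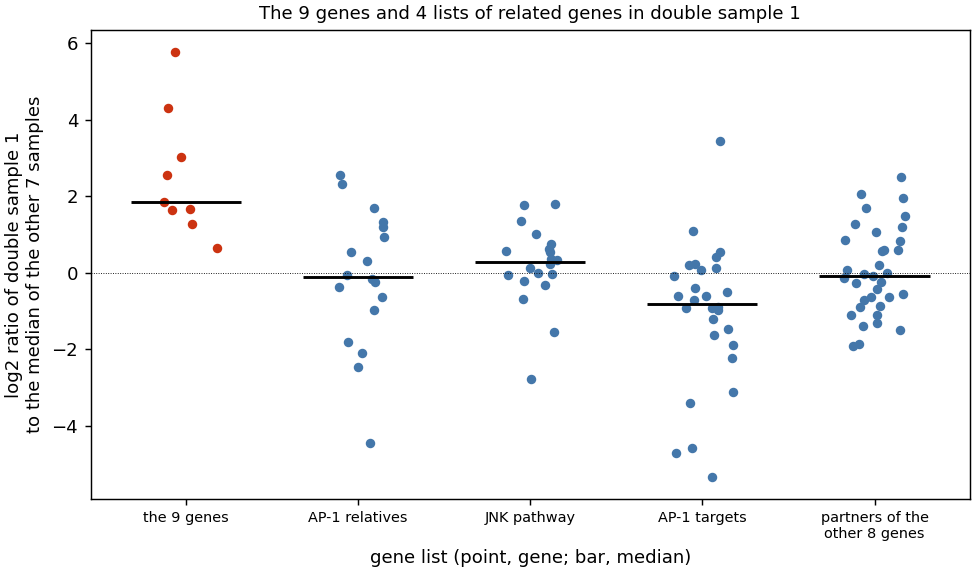
Log2 ratio of double sample 1 to the median of the other 7 samples for the 9 genes and 4 lists of related genes, each point a gene and each bar the median. The 9 genes, which were chosen for this, have a median of 1.84, and the lists have medians of -0.11 (AP-1 relatives), 0.27 (JNK pathway), -0.81 (AP-1 targets) and -0.08 (partners of the other 8 genes).

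Genes whose level over the 8 samples was most like that of Jun lay on other chromosomes. Among 14594 genes with a mean of at least 1 CPM outside the interval, the closest by Pearson correlation of log2 CPM were Dhrs11 at 0.984, Kcnk3 at 0.983, Gpt at 0.982, Urgcp at 0.972 and Cdo1 at 0.970. Dhrs11 encodes a dehydrogenase, Kcnk3 a potassium channel, Gpt alanine aminotransferase and Cdo1 cysteine dioxygenase. Double sample 1 weighs heavily in these values, and over the other 7 samples the correlations were 0.831 to 0.924. The 8 neighbours had 0.406 for Alg6 to 0.888 for Usp1 over 8 samples, and from -0.808 to 0.070 without double sample 1. The likeness of the neighbours to Jun thus rested on double sample 1.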

How the data were processed

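Read counts per gene were deposited by the authors as whole numbers, 1 table per sample, with coordinates. HTSeq, DESeq2, mm10 and GRCm38 are named, with no role, per the submitters' processing notes. Aligner, annotation release and strand setting were not given in the sources used here. Starts are counted from 0 in the files and were moved by 1. Of 52636 genes, 52403 had a symbol in GENCODE M21 and 49993 its coordinates and strand, on GRCm38.

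Samples were grouped by the genotype label. Replicate numbers were given in accession order and pair no samples. Every pair of samples differed by more than counting noise (median chi-square per gene of 11.7 or more). After filterByExpr and TMM scaling, the quasi-likelihood test of edgeR 4.0.16 (R 4.3.3) was run as triple minus double, all 8 samples, no covariate, with Benjamini-Hochberg adjustment over the 17709 genes tested and calls at an adjusted p under 0.05. Ratios used log2 CPM with a prior count of 2. Standard errors came from the test statistic. Depth, 26847202 to 32082535 counts, gave each of the 9 genes at least 552 reads in double sample 1.

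The 9 genes, the gene lists and the tests were chosen with earlier results of these data known. Named genes were the 9, other interval genes with a mean of at least 1 CPM, the 3 nearest on each outer side, Cdkn2a, called list members and the 5 genes most like Jun. A result that this rule takes is not reported here. Any other gene whose values are given, apart from the targeted Bap1 and Nf2, is marked where it appears as picked after its values were known. The tests were checked on counts simulated with the same spread for every gene and no library that stood apart. That check does not cover a sample like double sample 1. Alternatives were DESeq2 1.42.0, RLE scaling, library totals alone, no filter on low counts, a smaller prior count, other flanks and windows, the description code in the model, and each sample left out in turn. Fits within each code were added after seeing the data. Promoters are from RefSeq on GRCm38.p6.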

Additional observations from a re-analysis of the deposited data

Results flagged for a closer look

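Among 40 genes, mainly of the interval and its edges, 5 had 1 triple sample set apart from the rest. Its distance from the nearest other triple sample, relative to the range of the 6, was above the 95% critical value of Dixon's test. Chance passes that value in about 1 of 20 groups. Hook1 stood at 4.05 CPM in triple sample 2, with the next triple sample at 1.47 CPM. Usp1 stood at 79.4 CPM in triple sample 4, with the next at 67.9 CPM. Of the other genes of the region, Kank4 stood at 68.2 CPM in triple sample 5, with the next at 19.1 CPM, and Tusc1 at 15.6 CPM in triple sample 4, with the next at 9.14 CPM. Gm12666 stood at 0.6 CPM in triple sample 6, with the next at 0.127 CPM.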

How the results depend on the processing

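Calls over all genes numbered 1478, against 3380 with DESeq2, 962 with the description code as a term, 1 among the samples with other codes, and 315 to 5579 when 1 sample was left out. Calls among the 9 genes, 4, came to 1 with the code as a term, 0 among other codes and 0 to 8 without 1 sample. AP-1 relatives went from 1 to 2 with DESeq2 and 0 to 6 without 1 sample. JNK genes went from 1 to 4 with DESeq2, 2 with RLE scaling, 0 with the code and 0 to 7 without 1 sample. AP-1 targets went from 3 to 9 with DESeq2, 1 with the code and 1 to 7 without 1 sample, and partners from 1 to 5, 2 with RLE scaling, 0 with the code and 0 to 13. The median log2 difference of the 9 genes, -1.42, was -2.10 within SN930, -0.30 within other codes and -1.92 to -0.28 without 1 sample. That of Jun, -0.87, was -1.73, 0.85 and -1.60 to 0.73. The median ratio of the 9 genes in double sample 1, 1.84, was 1.37 with library totals, 2.21 against double sample 2, 2.30 against the same code and 1.70 to 1.90 without 1 sample. Interval minus flanks, 2.20, was 1.64 with flanks of 3 Mb and 2.13 to 2.42 without 1 sample, and the window median of 1.71 was 2.33 and 1.28 in 3 Mb windows. The cause was not tested. Without 1 double sample the other is assumed to vary like the triple samples. The fits within codes were chosen after seeing the data. No paired analysis was possible because replicate numbers were given in accession order.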

Other observations

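Another 6 Mb window of the genome stood higher in 2 triple samples than the window of Jun did in double sample 1. On chromosome 6, from 16 to 22 Mb, the median log2 ratio to the median of the other 7 samples over 21 tested genes was 4.16 in triple sample 4 and 2.66 in triple sample 1. Farther along chromosome 4, beyond the right edge of the interval, Prkaa2, a catalytic subunit of AMP-activated kinase, stood at 0.298, 3.36 and 34.9 CPM in the triple samples, lowest, median and highest, and at 65.7 and 5.45 CPM in double samples 1 and 2. Pde4b, a cAMP phosphodiesterase, stood at 11.7, 28.9 and 44.4 CPM in the triple samples and at 93.1 and 22.1 CPM in double samples 1 and 2. Both were highest in double sample 1 and were chosen after their values were seen.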
